A study of Homo sapiens with 112 samples.

Results

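FKBP5 and 9 chaperones and co-chaperones that act on steroid receptors were followed in VCaP and LAPC4, cell lines derived from prostate cancer. The 10 members were taken by gene symbol from a table of 58684 genes: the immunophilins FKBP5, FKBP4 and PPID, the HSP90 genes HSP90AA1 and HSP90AB1, the HSP90 co-chaperones PTGES3 and STIP1, the HSP70 gene HSPA8, and its J-domain partners DNAJB1 and DNAJA1. Each symbol matched 1 row, and all 10 passed the filter on low counts in both cell lines. Messenger RNA was sequenced from 55 VCaP and 57 LAPC4 libraries. Every culture first spent 2 days under hormone deprivation, in charcoal-stripped serum. It then received DMSO (vehicle), 1 nM R1881 (a synthetic androgen), or 1 nM R1881 with 500 nM or 2 µM darolutamide, an antagonist of androgen signalling, for 8 or 22 h. This gave 8 groups per cell line. The DMSO and R1881 groups of both lines held 10 libraries each at 8 h. At 22 h the DMSO groups held 8 (VCaP) and 7 (LAPC4), and the R1881 groups 9 (VCaP) and 10 (LAPC4). Each darolutamide group held 5 libraries, except the 500 nM groups of VCaP, which held 4. Darolutamide was given only together with R1881, so there is no group with the drug alone.

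An unliganded steroid receptor matures through a relay of chaperones. HSPA8 and a J-domain protein bind it first, STIP1 bridges the HSP70 and HSP90 machines and passes it on, and PTGES3 (p23) stabilises the closed HSP90 complex that can bind hormone. FKBP5 (FKBP51), FKBP4 (FKBP52) and PPID (cyclophilin 40) compete for the same place at the end of HSP90. FKBP4 favours transport and activity of the receptor, while FKBP5 is a textbook hormone-induced gene and part of a feedback loop around steroid receptors. HSP90AA1, DNAJB1 and HSPA8 are also targets of the heat shock response, and HSP90AB1 is the constitutive cytosolic HSP90.

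FKBP5 lies on the minus strand of chromosome 6, at 35573585 to 35728583 (GRCh38, GENCODE 44). The palindrome of AGAACA, any 3 bases and TGTTCT, which glucocorticoid, progesterone and related steroid receptors can bind, was searched in gene bodies because the members' hormone response is the subject of the data. It reads the same on both strands. One match lies inside the 154999-base FKBP5 gene, in intron 5 of the 11-exon canonical transcript, 126487 bases downstream of the gene's start. It is shown 5′ to 3′ on the strand of the gene (chr6:35602074-35602104), with the palindrome in capitals.
FKBP5 intron 5: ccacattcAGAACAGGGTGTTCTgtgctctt
Such a match was present in 1.26% of 20033 protein-coding gene bodies, which differ in length, and in 2.93% of 18992 genome windows as long as the FKBP5 gene. Occupancy of this site was not measured in these libraries.

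RefSeq promoter windows (GRCh38.p14, 250 bases before to 50 bases after a start) were held for 9 of the 10 members. They were searched on both strands for the heat shock element of 3 units, GAA, TTC and GAA with any 2 bases between neighbouring units. The search was made because several members are heat shock genes and several rose with R1881 in VCaP. The element was found for 4 of these 9 members, against 0.608% of 27305 genes with a window. The matches, in capitals, are shown on the strand of each gene for HSP90AA1 (chr14:102087112-102087140, minus), HSP90AB1 (chr6:44247823-44247851, plus, 1 of its 2 matches), HSPA8 (chr11:123062171-123062199, minus, 1 of 2) and DNAJA1 (chr9:33025268-33025296, plus).
HSP90AA1: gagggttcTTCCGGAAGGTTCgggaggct
HSP90AB1: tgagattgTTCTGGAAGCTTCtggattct
HSPA8: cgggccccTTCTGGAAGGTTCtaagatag
DNAJA1: gccgggcgGAACTTTCCAGAAcgctcggt
These letters were not in the windows of FKBP5, PTGES3, STIP1, DNAJB1 or PPID. For HSP90AA1 and HSP90AB1, all matches lay in the window furthest downstream (102086995 to 102087294 and 44247693 to 44247992). Their windows at starts further upstream held none. Other forms of the element and places outside the windows were not searched. Of the genes with a match, HSP90AA1, HSPA8 and DNAJA1 were called higher with R1881 in VCaP at 8 h, and HSP90AB1 was not. Of those without a match, FKBP5, STIP1, DNAJB1 and PPID were called higher, and PTGES3 was not. Binding at these elements was not measured in these libraries, and a role in the response was not tested.

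Libraries held 12188455 to 25201678 counted reads. ERG, which VCaP expresses from its fusion with TMPRSS2, had at least 1578 reads in each VCaP library and at most 1 in each LAPC4 library. The epithelial genes KRT8, KRT18, EPCAM and CDH1 and the prostate gene HOXB13 were expressed in both lines. KLK2, of the same list, had 32597 to 186961 reads in VCaP libraries and only 54 to 715 in LAPC4. KLK3 had 230 to 4172 reads in VCaP and 182 to 1153 in LAPC4. The 7 markers of leukocytes, endothelium and stroma summed to 1.13 to 7.31 CPM (the usual depth-scaled read count) in any library. All values are shares of a library's messenger RNA, so that fewer cells with a transcript and less of it per cell cannot be told apart. CPM was scaled by TMM factors, log2 fold changes are given with their standard error (SE), and a gene was called at an adjusted p under 0.05 (edgeR quasi-likelihood test, adjusted over all genes tested).

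FKBP5 was the member with the widest range. In VCaP at 8 h its level was 71.2 CPM in the lowest, 80.7 in the median and 86.0 in the highest of the 10 DMSO libraries. The 10 R1881 libraries had 2691, 2968 and 3188 CPM in the lowest, median and highest library. The groups were far apart, with a log2 fold change of 5.21 (SE 0.0368, adjusted p = 1.77e-66), a 36.9-fold rise. At 22 h the DMSO libraries had 67.3 to 76.2 CPM (n = 8) and the R1881 libraries 3031 to 3579 CPM (n = 9), a log2 fold change of 5.49 (SE 0.0415, adjusted p = 3.96e-65). The rise was larger at 22 h than at 8 h by 0.29 on the log2 scale (SE 0.0465, adjusted p = 3.93e-07). Both groups entered this difference: from 8 to 22 h the mean log2 CPM went from 6.315 to 6.176 with DMSO and from 11.52 to 11.668 with R1881. Among the genes higher with R1881, FKBP5 ranked 44 of 6327 at 8 h and 28 of 7201 at 22 h by fold change.

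Darolutamide lowered FKBP5 in VCaP by dose and time. With 500 nM for 8 h the 4 libraries had 1461, 1485, 1435 and 1458 CPM, and with 2 µM the 5 libraries had 459, 492, 467, 496 and 480 CPM. After 22 h they had 476, 548, 519 and 538 CPM with 500 nM, and 188, 192, 182, 205 and 199.6 CPM with 2 µM. No library of a darolutamide group overlapped with the R1881 or DMSO libraries of its time point. Against R1881, the log2 fold change was -1.01 (SE 0.0426) with 500 nM and -2.62 (SE 0.0429) with 2 µM at 8 h, and -2.65 (SE 0.0476) and -4.07 (SE 0.0471) at 22 h. The 2 doses differed by -1.61 at 8 h (SE 0.0461, adjusted p = 3.53e-34) and by -1.43 at 22 h (SE 0.0463, adjusted p = 4.18e-32). FKBP5 did not return to the vehicle level. With 2 µM it stayed 6.01-fold above DMSO at 8 h (log2 2.59, SE 0.0369, adjusted p = 1.8e-50) and 2.68-fold at 22 h (log2 1.42, SE 0.0397, adjusted p = 5.48e-36).

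**Figure D1:**
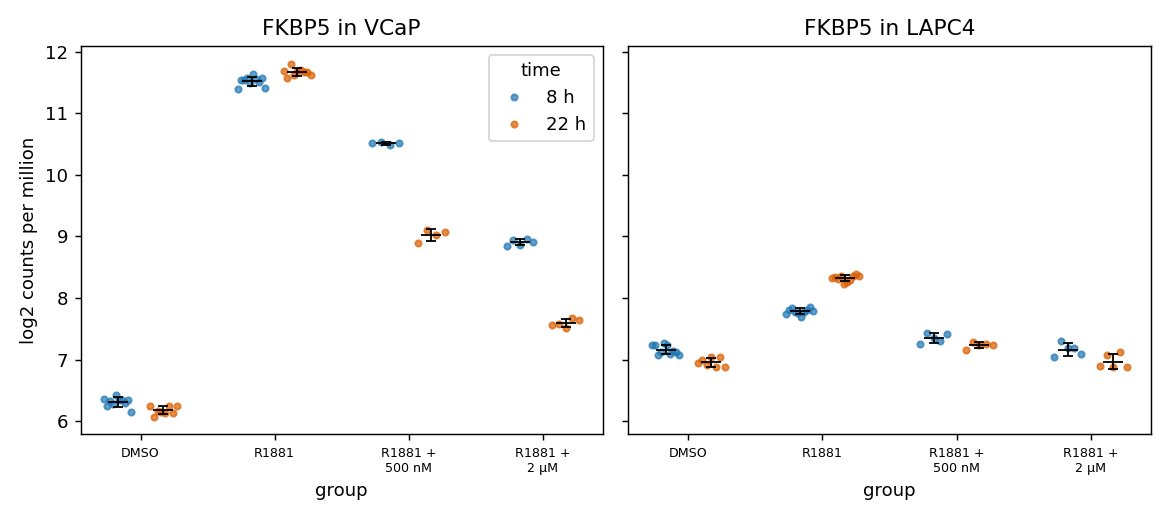
FKBP5 level of each library (log2 CPM, vertical axis) in the 4 treatments (horizontal axis) at 8 h (blue) and 22 h (orange), with the mean and SD of each group in black, in VCaP (left) and LAPC4 (right). In VCaP the R1881 groups have mean log2 CPM of 11.52 and 11.67, the DMSO groups 6.32 and 6.18, and the darolutamide groups lie between them, while in LAPC4 the 2 µM groups sit at the DMSO level of their time point.

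LAPC4 libraries had a higher FKBP5 level without hormone, in CPM scaled within each line and not tested between lines, and responded less. The 10 DMSO libraries at 8 h had 135 to 155 CPM, and the 10 R1881 libraries 206 to 232 CPM, a log2 fold change of 0.62 (SE 0.0327, adjusted p = 9.07e-22). At 22 h DMSO libraries had 117.5 to 132 CPM (n = 7) and R1881 libraries 300.2 to 335.5 CPM (n = 10), a log2 fold change of 1.36 (SE 0.0374, adjusted p = 9.83e-36). The groups did not overlap at either time. The rise was larger at 22 h by 0.75 (SE 0.0488, adjusted p = 2.06e-17). From 8 to 22 h the mean log2 CPM went from 7.164 to 6.957 with DMSO and from 7.783 to 8.322 with R1881. In the fit of both lines, the R1881 effect in VCaP exceeded that in LAPC4 by 4.50 at 8 h (SE 0.0549, adjusted p = 4.99e-91) and by 4.07 at 22 h (SE 0.0592, adjusted p = 1.75e-83).

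In LAPC4, FKBP5 came near the vehicle level with 2 µM darolutamide, while with 500 nM for 22 h every library stayed above every DMSO library. With 500 nM for 22 h the 5 libraries had 142, 157, 150.15, 152 and 151 CPM, and with 2 µM 119, 134, 118, 140.1 and 117 CPM. Against R1881 the log2 fold change was -1.09 (SE 0.0418) with 500 nM and -1.35 (SE 0.0424) with 2 µM at 22 h, and -0.43 (SE 0.0405) and -0.62 (SE 0.0409) at 8 h. The doses differed by -0.26 at 22 h (SE 0.0465, adjusted p = 0.000874), a call that was lost with the replicate number as a block and in a fit of only these 2 groups. Against DMSO, the difference with 2 µM was 0.02 on the log2 scale at 22 h (95% interval -0.07 to 0.10) and 0.00 at 8 h (-0.08 to 0.08), neither of which passed the test.

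The size of the return can be given as reversal, the part of the R1881 change in log2 CPM that was undone in a darolutamide library. It is a description without a test, since it is scaled by the same R1881 libraries. Reversal is given only for members whose R1881 change was called and exceeded a cutoff of 0.25 in absolute log2 fold change. In VCaP, 500 nM darolutamide reversed FKBP5 by 19.4% ± 0.39 at 8 h and by 48.2% ± 1.65 at 22 h (SD, n = 4 each), and 2 µM by 50.3% ± 0.92 and 74.2% ± 1.26 (SD, n = 5 each). In LAPC4 the reversal was 69.7% ± 12.5 and 79.7% ± 3.77 for 500 nM, and 100.1% ± 15.9 and 99.1% ± 8.86 for 2 µM, at 8 and 22 h (SD, n = 5 each).

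The 8 VCaP groups had the following order of FKBP5, from low to high: DMSO at 22 h and at 8 h, 2 µM at 22 h and at 8 h, 500 nM at 22 h and at 8 h, then R1881 at 8 h and at 22 h. Neighbours differed in a two-sided exact permutation test adjusted over 14 pairs in both lines, except 2 µM at 8 h and 500 nM at 22 h (log2 difference 0.12, adjusted p = 0.0808). In LAPC4 the order was DMSO and 2 µM at 22 h, 2 µM and DMSO at 8 h, 500 nM at 22 h and at 8 h, then R1881 at 8 h and at 22 h. There the first 4 pairs of neighbours were not separated by the same permutation test, with adjusted p of 0.873, 0.0556, 0.996 and 0.105. The last 3 pairs were (adjusted p of 0.0417, 0.00233 and 0.00084 in the permutation test).

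Levels of different genes were compared per kilobase of exon, with the exons of all transcripts of a gene joined. The order depends on this length. In CPM with DMSO at 8 h, PPID was below FKBP5 in both lines (37.5 and 79.6 in VCaP, 53.0 and 143.5 in LAPC4). In VCaP with DMSO at 8 h, FKBP5 was the lowest member at 7.49 CPM per kilobase, below DNAJB1 at 11.2, PPID at 14.9, FKBP4 at 85.5, DNAJA1 at 129.9, PTGES3 at 142, STIP1 at 182, HSP90AA1 at 271, HSPA8 at 573 and HSP90AB1 at 975 CPM per kilobase. With R1881 it stood at 277 CPM per kilobase, next to STIP1 at 270.2, and only HSPA8, HSP90AB1 and HSP90AA1 were higher. In LAPC4 with DMSO at 8 h it was also the lowest member, at 13.5 CPM per kilobase. With R1881 at 22 h it had 30.1 CPM per kilobase there, above DNAJB1 at 19.9 and PPID at 19.2.

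In the whole set, R1881 against DMSO at 8 h called 8 of 10 members in VCaP, 7 higher and 1 lower, where 66.9% of all 19266 genes tested were called. At 22 h it called 9 of 10, 8 higher and 1 lower, against 77.4% of all genes. These shares are near those of the background, so the counts alone say little about the members. The shares of all genes called higher were 32.8% at 8 h and 37.4% at 22 h, and lower 34.1% and 40.0%. In LAPC4, 1 of 10 was called at 8 h and 3 at 22 h, all higher, against 2.64% and 13.3% of 18204 genes (1.75% and 6.83% higher). The R1881 effect differed between 22 and 8 h for 7 of 10 members in VCaP, against 60.4% of all genes. It was higher at 22 h for FKBP5, FKBP4 and STIP1 (28.1% of all genes) and lower for HSP90AA1, HSP90AB1, DNAJB1 and DNAJA1 (32.3%). In LAPC4 it differed for FKBP5 alone, as a larger rise at 22 h (3.21% of all genes called, 1.8% higher). Apart from FKBP5, the LAPC4 changes with R1881 lay between -0.04 and 0.07 (log2) at 8 h and between 0.01 and 0.12 at 22 h.

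**Figure D2:**
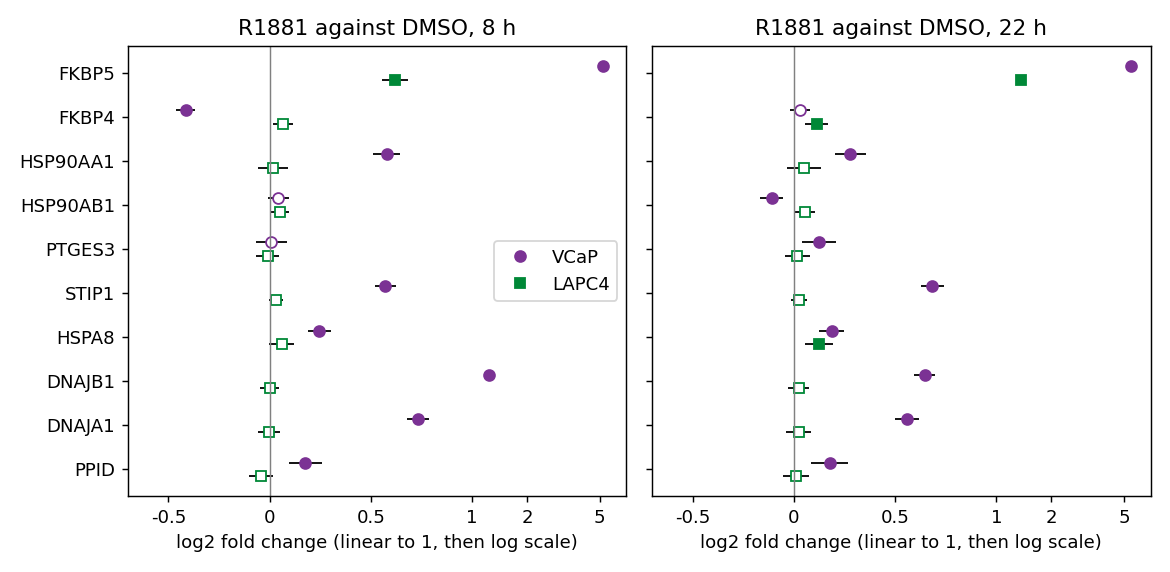
Log2 fold change of R1881 against DMSO (horizontal axis, linear to 1 and logarithmic beyond) for the 10 members in VCaP (circles) and LAPC4 (squares) at 8 h (left) and 22 h (right), with 95% intervals. Filled symbols passed an adjusted p of 0.05. FKBP5 lies at 5.21 and 5.49 in VCaP, and the other members stay between -0.41 and 1.24.

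FKBP4, on chromosome 12 (2794970 to 2805423, plus strand), moved against its paralogue at 8 h in VCaP. It had 421 to 469 CPM in the DMSO libraries and 311 to 355 CPM in the R1881 libraries, which did not overlap (log2 -0.41, SE 0.0238, adjusted p = 1.33e-22). At 22 h it had 411 to 463 and 423 to 456 CPM, and the log2 fold change was 0.03 (95% interval -0.02 to 0.08, adjusted p = 0.265). The time points differed by 0.45 (SE 0.0351, adjusted p = 1.49e-16). In LAPC4, FKBP4 did not pass the test at 8 h and rose by 0.11 at 22 h (SE 0.0285, adjusted p = 0.00346), a call that was lost with control replicates 6 and above. Those controls hold only replicates 6 and 7 of DMSO at 22 h. The log2 fold change was 0.091 to 0.114 over all alternatives. VCaP and LAPC4 differed in the R1881 effect on FKBP4 by -0.56 at 8 h and -0.14 at 22 h (SE 0.0344 and 0.0377, adjusted p = 6.04e-29 and 0.000718).

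The balance of the paralogues shifted accordingly. The ratio of FKBP5 to FKBP4 counts within a library does not depend on scaling. In VCaP at 8 h it was 0.162 to 0.204 with DMSO, 8.05 to 9.72 with R1881, 4.10 to 4.66 with 500 nM and 1.24 to 1.38 with 2 µM darolutamide. At 22 h it was 0.157 to 0.184, 6.99 to 8.06, 1.03 to 1.21 and 0.360 to 0.405 in the same order. R1881 raised the ratio 49.2-fold at 8 h (n = 10 and 10, permutation test with 100000 resamples, adjusted p = 0.000263) and 44.1-fold at 22 h (n = 9 and 8, exact permutation test, adjusted p = 0.000263). With 2 µM it differed from R1881 by -2.75 on the log2 scale at 8 h and by -4.24 at 22 h (exact permutation tests, adjusted p = 0.00107 and 0.00145, adjusted over 16 comparisons of 2 ratios). In LAPC4 R1881 raised it 1.47-fold at 8 h and 2.38-fold at 22 h (permutation tests, adjusted p = 0.000263 and 0.000274). The LAPC4 ratio passed 1 only with R1881 at 22 h, where the libraries had 1.10 to 1.24. These counts are not corrected for gene length. Per kilobase of exon, FKBP5 had 30.1 and FKBP4 53.6 CPM in that group.

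The HSP90 genes responded unequally. HSP90AA1, the inducible gene (chromosome 14, 102080742 to 102139699, minus strand), had 1267.5 to 1477 CPM with DMSO and 1804 to 2262.5 CPM with R1881 in VCaP at 8 h (log2 0.58, SE 0.0352, adjusted p = 1.6e-21). At 22 h it had 1164 to 1376 and 1366 to 1675 CPM, with overlapping groups and a log2 fold change of 0.28 (SE 0.0382, adjusted p = 3.59e-09). HSP90AB1 (chromosome 6, 44246166 to 44253888, plus strand) had 2664 to 3012.5 and 2723 to 3204 CPM at 8 h, a log2 difference of 0.04 (95% interval -0.01 to 0.09, adjusted p = 0.153). At 22 h it fell by 0.11 on the log2 scale (SE 0.0291, adjusted p = 0.000685).

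The ratio of HSP90AA1 to HSP90AB1 counts in VCaP rose with R1881 1.45-fold at 8 h and 1.31-fold at 22 h, with libraries that did not overlap (permutation tests, adjusted p = 0.000263 for both). Darolutamide at 2 µM lowered it to 0.519 to 0.546 at 8 h, from 0.659 to 0.725 with R1881 (exact permutation test, adjusted p = 0.00107). At 22 h it had 0.506 to 0.563 with 2 µM and 0.513 to 0.568 with R1881, which the exact permutation test did not separate (adjusted p = 0.834). In LAPC4 the log2 differences of this ratio lay between -0.03 and 0.03, and none of the 4 passed the permutation test, with adjusted p of 0.254 to 0.866. It passed once there among the alternatives, for R1881 at 8 h with control replicates 1 to 5 (log2 -0.06, permutation test, adjusted p = 0.0423).

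STIP1, the adaptor between HSP70 and HSP90 (chromosome 11, 64185272 to 64204543, plus strand), rose in VCaP from 770.0 to 933 CPM with DMSO to 1194.5 to 1378.5 CPM with R1881 at 8 h (log2 0.57, SE 0.0257, adjusted p = 2.01e-27). At 22 h the ranges were 773.5 to 853 and 1280.3 to 1320.3 CPM (log2 0.68, SE 0.0281, adjusted p = 2.14e-29). PTGES3, the p23 co-chaperone (chromosome 12, 56663341 to 56688408, minus strand), had 433.5 to 527 and 427 to 537 CPM at 8 h, a log2 difference of 0.01 (95% interval -0.07 to 0.08). It rose by 0.13 at 22 h (SE 0.0421, adjusted p = 0.00646), a call lost with control replicates 6 and above, which hold only replicates 6 to 8 of DMSO. PPID, the cyclophilin (chromosome 4, 158709127 to 158723396, minus strand), rose by 0.18 at both times (SE 0.0424 and 0.0464), with overlapping groups.

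The HSP70 group rose early in VCaP. DNAJB1, a J-domain protein that starts the HSP70 cycle and a heat shock target (chromosome 19, 14514769 to 14560391, minus strand), had 81.5, 91.9 and 97.1 CPM in the lowest, median and highest DMSO library at 8 h, and 209, 216 and 221 CPM with R1881. The groups lay far apart, with a log2 fold change of 1.24 (SE 0.0240, adjusted p = 3.67e-45), the largest after FKBP5. By 22 h its rise was 0.65 (SE 0.0263, adjusted p = 1.26e-29), smaller than at 8 h by 0.59 (SE 0.0352, adjusted p = 1.48e-21). DNAJA1 (chromosome 9, 33025273 to 33039907, plus strand) rose by 0.73 at 8 h (SE 0.0279) and by 0.56 at 22 h (SE 0.0305), again less at 22 h (adjusted p of the difference 0.000248). HSPA8, the constitutive HSP70 (chromosome 11, 123057489 to 123063230, minus strand), rose by 0.24 at 8 h (SE 0.0284) and by 0.19 at 22 h (SE 0.0310), without a called difference between the times (adjusted p = 0.234). In LAPC4 DNAJB1 and DNAJA1 did not pass the test at either time, and HSPA8 rose by 0.12 at 22 h only (SE 0.0347, adjusted p = 0.00868), a call lost with control replicates 6 and above and without the filter on low counts. Those controls hold only replicates 6 and 7 of DMSO at 22 h.

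Between the lines, the R1881 effect differed for 7 of 10 members at 8 h and for 7 at 22 h, against 58.5% and 68.5% of 16578 genes. It was higher in VCaP for 6 and lower for 1 at 8 h (26.4% and 32.1% of all genes), and higher for 5 and lower for 2 at 22 h (31.6% and 36.9%). DNAJB1 was higher in VCaP by 1.16 at 8 h (SE 0.0303) and by 0.56 at 22 h (SE 0.0334). DNAJA1 was higher by 0.65 and 0.47, and STIP1 by 0.46 and 0.60 (SE 0.0308 and 0.0336). PTGES3 and HSPA8 were called at neither time, with 95% intervals of the difference at 22 h of -0.07 to 0.16 and -0.10 to 0.11.

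Several chaperones also differed between 8 and 22 h without hormone. The labels name no batch, so time and harvest cannot be told apart. With DMSO, HSPA8 had 2569.6 to 2891 CPM at 8 h and 1822.5 to 2043 CPM at 22 h in VCaP, a fall of 0.51 on the log2 scale (SE 0.0304, adjusted p = 1.75e-20) without overlap. In LAPC4 it fell by 0.68 (SE 0.0353, adjusted p = 2.34e-22). DNAJB1 fell by 0.18 in VCaP and by 0.38 in LAPC4, and DNAJA1 by 0.21 and 0.32. In LAPC4 8 of 10 members were called lower at 22 h than at 8 h, against 11.4% of all genes called lower and 22.1% called in either direction. In VCaP 5 were called lower and 1, PTGES3, higher, against 29.8% of all genes called (13.9% lower and 15.9% higher).

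**Figure D3:**
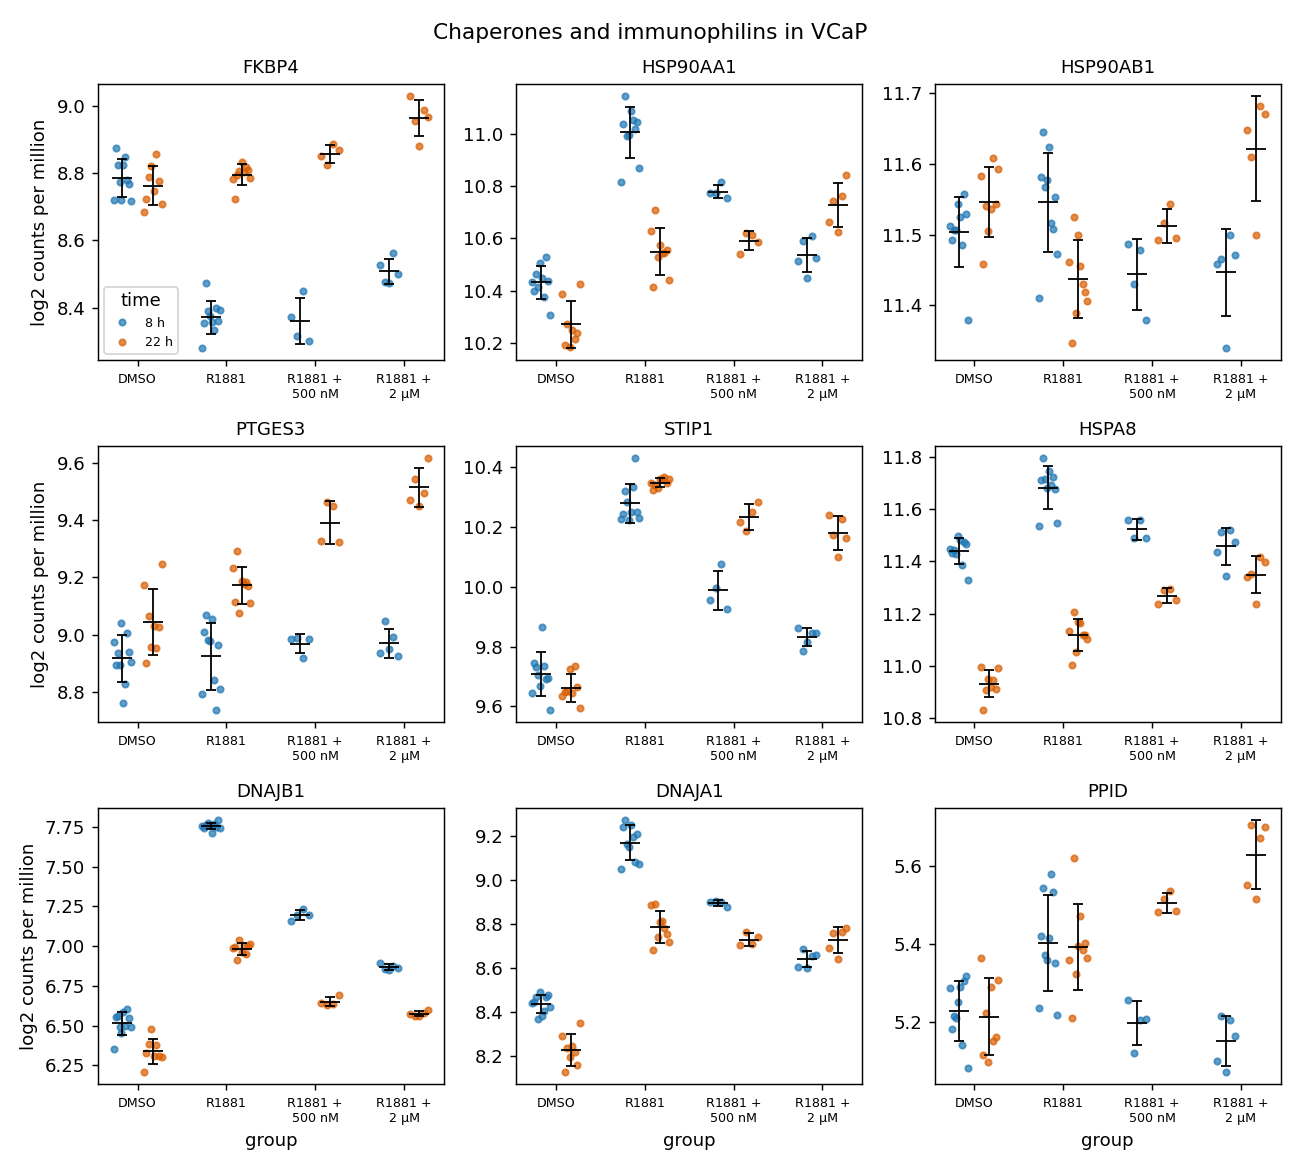
Level of the 9 members other than FKBP5 in each VCaP library (log2 CPM, vertical axis, scaled per panel) by treatment at 8 h (blue) and 22 h (orange), with the mean and SD of each group in black. DNAJB1 falls back towards DMSO with darolutamide at both times, while PTGES3, HSPA8 and PPID at 22 h are higher with 2 µM darolutamide than with DMSO or R1881.

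At 8 h, darolutamide moved most of the VCaP chaperones back towards DMSO. Against R1881, 500 nM called 8 of 10 members, all lower (30.6% of all genes called, 15.7% lower), and 2 µM called 9, of which 8 were lower and FKBP4 was higher (52.1% of all genes, 26.2% lower and 25.9% higher). HSP90AB1 was lower with both doses, though R1881 had not raised it (means 2787 and 2793 CPM, DMSO 2905). Its calls were lost in 5 of 13 alternatives with 500 nM and 4 of 14 with 2 µM. The PPID means of 36.6 and 35.5 CPM also lay below DMSO (37.5). DNAJB1 had 143, 146, 150.2 and 146 CPM with 500 nM, and 119, 116, 115, 117 and 116 CPM with 2 µM (log2 -0.56 and -0.89 against R1881, SE 0.0320 and 0.0299). These values lie between DMSO and R1881 without overlap. The reversal with 2 µM was 81.5% ± 11.3 (SD, n = 5) for HSP90AA1, 78.3% ± 5.27 for STIP1, 72.0% ± 5.16 for DNAJA1, 71.5% ± 1.48 for DNAJB1 and 32.9% ± 9.01 for FKBP4 (SD, n = 5 each). With 500 nM it was 39.5% ± 4.31 for HSP90AA1, 50.8% ± 11.5 for STIP1, 37.4% ± 1.80 for DNAJA1 and 45.2% ± 2.49 for DNAJB1 (SD, n = 4 each). FKBP4 with 500 nM had -2.98% ± 16.4 (SD, n = 4). HSPA8 and PPID, though called higher with R1881 at 8 h, were under the cutoff and have no reversal value. The 2 doses differed for 6 of 10 members, 5 lower with 2 µM, among them DNAJB1 by -0.33 and DNAJA1 by -0.25, and 1, FKBP4, higher (17.6% of all genes, 10.0% lower and 7.53% higher).

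At 22 h the picture in VCaP was different. Against R1881, 2 µM called 9 of 10 members, but 6 of them were higher with darolutamide and 3 lower (66.9% of all genes, 36.1% of all genes called higher, 30.8% lower). FKBP5, DNAJB1 and STIP1 were lower, with DNAJB1 at -0.41 (SE 0.0301, adjusted p = 4.98e-18) and STIP1 at -0.17 (SE 0.0321, adjusted p = 8.44e-06). PTGES3 had 540.1 to 626.5 CPM with R1881, 642, 707, 699 and 641 CPM with 500 nM, and 709.5, 747, 699, 721 and 785 CPM with 2 µM. Every darolutamide library lay above every R1881 library, with a log2 fold change of 0.34 for 2 µM (SE 0.0477, adjusted p = 7.37e-09). HSPA8 had 2050.4 to 2363 CPM with R1881 and 2593, 2614, 2416, 2732 and 2700.4 CPM with 2 µM, again without overlap (log2 0.23, SE 0.0352, adjusted p = 7.08e-08). FKBP4, HSP90AA1, HSP90AB1 and PPID were higher by 0.17, 0.18, 0.19 and 0.24.

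With 500 nM at 22 h, 5 of 10 members were called against R1881 (53.0% of all genes, 26.7% higher and 26.4% lower). PTGES3 and HSPA8 were higher by 0.22 and 0.15, and FKBP5, STIP1 and DNAJB1 lower. The count was 8 in a fit of only these groups and with control replicates 1 to 5, in both of which FKBP4, HSP90AB1 and PPID were added. The 2 doses differed at 22 h for FKBP5, FKBP4 (0.11) and HSP90AB1 (0.11), 1 lower and 2 higher, against 20.2% of all genes (9.75% lower and 10.4% higher). Without replicate 4 of the 500 nM group, the count of 3 was 1.

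Against DMSO, all 10 members were called higher with R1881 plus 2 µM darolutamide at 22 h in VCaP, where 30.5% of all genes were higher and 59.0% were called. HSP90AB1 was at the threshold (log2 0.08, SE 0.0340, adjusted p = 0.0490), and its call was lost without any 1 of the 5 darolutamide libraries and with DESeq2, which leaves 9. The others without FKBP5 rose by 0.20 (FKBP4) to 0.52 (STIP1), among them DNAJA1 by 0.50 (SE 0.0351), PTGES3 by 0.47 (SE 0.0488), HSP90AA1 by 0.46 (SE 0.0442), HSPA8 by 0.42 (SE 0.0359) and PPID by 0.41 (SE 0.0531). At 8 h the same contrast called 5 members: FKBP5, DNAJB1, DNAJA1 and STIP1 higher and FKBP4 lower (27.5% of all genes, 15.4% higher and 12.0% lower). These comparisons share the darolutamide libraries with those against R1881.

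In 6 of 10 members (FKBP4, HSP90AA1, HSP90AB1, PTGES3, HSPA8 and PPID), the VCaP level at 22 h with 2 µM darolutamide was thus called above both R1881 and DMSO. This pattern was chosen after its values were seen. It held for 11.7% of all genes, and the count was 5, without HSP90AB1, with DESeq2, with either choice of control replicates, without the filter on low counts, in a fit of only the groups compared, with the replicate block, and without any 1 of the 5 darolutamide libraries. Of the 6 members, only HSP90AA1 met the cutoff for reversal at 22 h, and its value was negative, -63.6% ± 30.6 (SD, n = 5). PTGES3, HSPA8 and PPID rose with R1881 by less than the cutoff, so no reversal is given for them. Outside the 6, DNAJA1 had a reversal of 10.7% ± 10.7, STIP1 24.5% ± 8.26 and DNAJB1 63.2% ± 2.54 (SD, n = 5 each). No member was called above both at 8 h in edgeR or DESeq2 (1.83% of all genes).

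**Figure D4:**
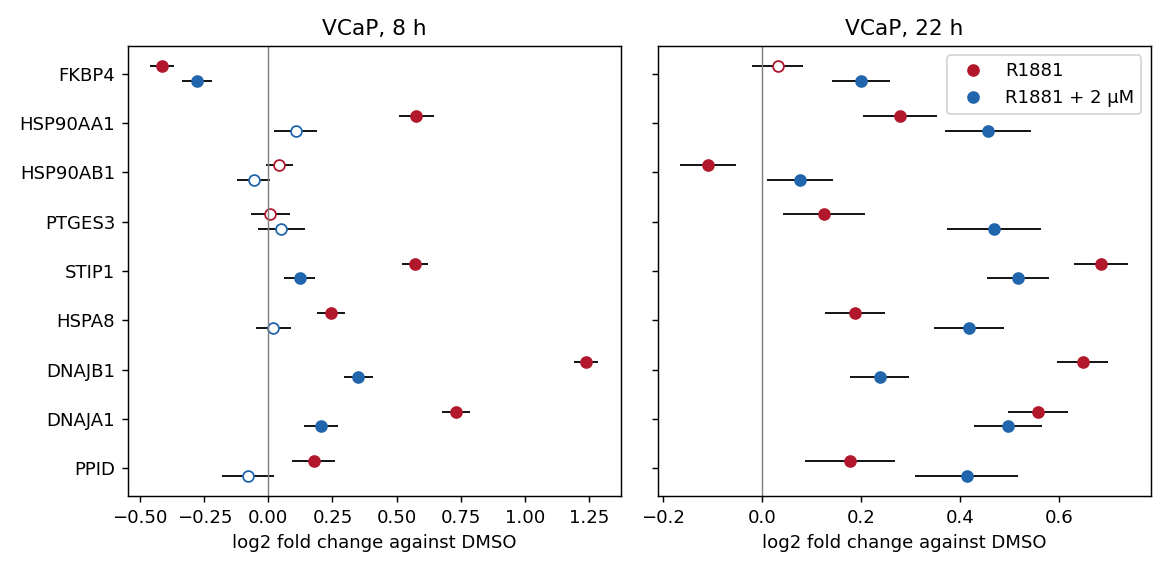
Log2 fold change against DMSO (horizontal axis) of R1881 (red) and of R1881 plus 2 µM darolutamide (blue) in VCaP for 9 members at 8 h (left) and 22 h (right), with 95% intervals and filled symbols for an adjusted p under 0.05. At 8 h the blue points lie nearer to 0 than the red for HSP90AA1, STIP1, HSPA8, DNAJB1, DNAJA1 and FKBP4, and at 22 h they lie to the right of the red for 6 of the 9 genes.

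In LAPC4 the chaperones hardly moved with darolutamide. Against R1881, FKBP5 was the only member called at 8 h with either dose and at 22 h with 500 nM and was lower each time. All genes called came to 0.626% with 500 nM at 8 h (0.489% lower), 1.54% with 2 µM at 8 h (1.08% lower) and 5.89% with 500 nM at 22 h (3.21% lower). With 2 µM at 22 h HSP90AB1 was also called, at -0.09 (SE 0.0281, adjusted p = 0.0332), against 10.5% of all genes (5.47% lower), a call lost without replicate 1, 2, 3 or 5 of this group. Between the 2 doses at 8 h, edgeR and DESeq2 called 0 of 10 members (0.0275% of all genes), with 1 at an unadjusted p under 0.05. At 22 h FKBP5 alone was called, lower with 2 µM (0.258% of all genes, 0.214% lower). Against DMSO, edgeR and DESeq2 called 0 of 10 members with 2 µM at both times (0.011% of all genes at 8 h and 0.0165% at 22 h). At an unadjusted p under 0.05 there were 4 at 8 h and 1 at 22 h. The log2 differences ranged from -0.002 to 0.12 at 8 h and from -0.03 to 0.08 at 22 h. With control replicates 1 to 5, FKBP4 was called at 8 h. With the replicate block and GC content in the fit, 4 were called at 8 h (FKBP4, HSP90AA1, STIP1 and HSPA8) and 2 at 22 h (HSPA8 and DNAJA1).

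Other genes of the folding machinery were taken from lists of textbook members. Their counts in VCaP stand against 37.4% of all genes called higher and 40.0% lower with R1881 at 22 h, and 32.8% and 34.1% at 8 h. With 2 µM darolutamide against DMSO, 30.5% of all genes were called higher at 22 h (5877 of 19266) and 5488 were called lower. At 8 h, 15.4% were higher and 12.0% lower. Of 22 HSP90 family genes and co-chaperones outside the set, 12 rose and 4 fell with R1881 in VCaP at 22 h (median log2 0.14, all genes -0.03). With 2 µM darolutamide, 14 were higher and 2 lower than with DMSO (median 0.37, all genes 0.01). At 8 h the counts of this list were 6 higher and 3 lower with R1881 (median 0.004), and 1 higher and 5 lower with 2 µM against DMSO (median -0.11). HSP90B1, the HSP90 of the endoplasmic reticulum, rose by 1.26 with R1881 (SE 0.0395), TRAP1, the mitochondrial HSP90, fell by 0.65 (SE 0.0595), and NUDC rose by 0.60 (SE 0.0590). NUDC was higher still with 2 µM, by 0.17 against R1881 (adjusted p = 0.0162).

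Of 26 other genes of the HSP70 system, 19 rose and 3 fell with R1881 in VCaP at 22 h (median 0.43), and 18 rose and 4 fell at 8 h (median 0.29). With 2 µM against DMSO, 16 were higher and 3 lower at 22 h, and 11 higher and 1 lower at 8 h. The leading genes were HSPA5 (1.75, SE 0.0320), the HSP70 of the endoplasmic reticulum, its partner DNAJB11 (1.82, SE 0.0389) and DNAJA4 (1.26, SE 0.0269). Each was lower with 2 µM than with R1881, by -0.80, -0.83 and -0.91, and still above DMSO, by 0.94, 0.99 and 0.36. Of 15 measured heat shock response genes, 10 rose and 4 fell with R1881 at 22 h, and 7 rose and 3 fell at 8 h. Most genes of this list also stand in the HSP70 or HSP90 list, so the counts of these lists are not separate. With 2 µM against DMSO, 8 were higher and 0 lower at 22 h (edgeR, 10 called in either direction at an unadjusted p under 0.05, and 9 with DESeq2), and 4 higher and 2 lower at 8 h. HSPH1 rose by 0.72 (SE 0.0407) and HSPA4 by 0.45 (SE 0.0367), both HSP110-type exchange factors that also stand in the HSP70 list, and the small heat shock gene CRYAB by 2.94 (SE 0.247). HSPH1 was a little higher with 2 µM than with R1881 (0.13, adjusted p = 0.0130), while CRYAB was lower by -3.53 (SE 0.306).

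Of 20 other FKBP and cyclophilin genes, 10 rose and 3 fell with R1881 in VCaP at 22 h (median 0.09). PPIB (1.64, SE 0.0389) and FKBP11 (1.44, SE 0.0507), both of the secretory pathway, and FKBP1B (2.90, SE 0.107) had the smallest adjusted p. At 8 h, 6 rose and 10 fell (median -0.12). With 2 µM against DMSO, 13 were higher and 1 lower at 22 h, and 1 higher and 1 lower at 8 h. Of the 8 subunits of the cytosolic chaperonin TRiC, 4 rose and 2 fell with R1881 at 22 h (median 0.08), and all 8 were higher with 2 µM than with DMSO (median 0.35). At 8 h, 2 rose and 2 fell with R1881, and 1 was higher and 1 lower with 2 µM than with DMSO. TCP1 rose by 0.58 with R1881 (SE 0.0297), CCT7 by 0.26 (SE 0.0283), and CCT3 fell by 0.24 (SE 0.0250).

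In LAPC4 at 22 h, where 13.3% of all genes were called with R1881, the lists had these calls: 1 of 22 in the HSP90 list (RUVBL1, 0.14), 1 of 26 in the HSP70 list (DNAJB4, -0.39), 2 of 15 heat shock genes (HSPD1, 0.22, and HSPE1, 0.27), 4 of 19 immunophilins (among them PPIF, 0.25, PPIC, -0.14, and PPIA, 0.09) and 2 of 8 TRiC subunits (CCT5, 0.16, and TCP1, 0.09). Each of these 9 named genes with 2 µM did not pass the test against DMSO.

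The genes whose levels followed FKBP5 most closely were found by the smaller of 2 Pearson correlations of log2 CPM, over the 55 VCaP and over the 57 LAPC4 libraries, among 16577 genes. Libraries of a group share their treatment, so no p is given. MBOAT2 had correlations of 0.97 and 0.96, EAF2 of 0.95 and 0.95, ZNF613 of 0.93 and 0.95, LRIG1 of 0.94 and 0.93, and ZNF761 of 0.97 and 0.92, in VCaP and LAPC4. The chaperones of the set did not follow it in both lines. In VCaP DNAJA1, STIP1 and DNAJB1 had the highest correlations with FKBP5, 0.86, 0.86 and 0.85, and in LAPC4 -0.09, 0.05 and -0.11. HSP90AA1, HSPA8 and PPID had 0.697, 0.353 and 0.294 in VCaP, and 0.062, -0.015 and -0.106 in LAPC4. PTGES3, HSP90AB1 and FKBP4 had -0.002, -0.263 and -0.515 in VCaP, and 0.127, 0.35 and 0.175 in LAPC4.

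Rows of processed pseudogenes share sequence with several members. Their counts came to 22.2% to 25.2% of those of HSP90AB1, 16.9% to 22.6% of HSPA8, 17% to 21.4% of HSP90AA1 and 10.9% to 19.5% of PTGES3, with no such row for FKBP5 or PPID. How reads that fit both places were assigned is not given in the sources used here, so the levels of these genes are uncertain. Adding the pseudogene counts, a check chosen after the data were seen, left 6 members above both R1881 and DMSO in VCaP at 22 h.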

How the data were processed

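Messenger RNA of 112 cultures of VCaP and LAPC4 was sequenced by the study as poly(A)-selected, stranded, single-end libraries. The deposited values are raw gene counts, which the authors made with bcl2fastq 2.17, STAR and featureCounts on GRCh38 (per the labels and the study's methods). The annotation release and the strand and multiple-mapping settings are not given in the sources used here. The study's methods name 5 biological replicates per condition, while groups held 4 to 10 libraries, so p-values measure the spread between these libraries, part of which may be technical.

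A gene was tested in a line if 4 or more of its libraries had 10 or more reads (19266 genes in VCaP, 18204 in LAPC4) in 1 fit of 8 groups per line with edgeR 4.0.16 in R 4.3.3 (TMM, quasi-likelihood test, Benjamini-Hochberg adjustment). The SE was derived from the F statistic (the size of the log2 fold change over the root of F), and 95% intervals are not adjusted. The lines were compared in 1 fit of 16 groups over 16578 genes. Ratios and neighbouring FKBP5 levels were tested with two-sided permutation tests in scipy 1.17.1, exact except for 100000 resamples where both groups held 10 libraries. The fit was tested on simulated data. Library totals were 12188455 to 25201678 counts, and libraries of a group differed by more than counting noise.

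The members and gene lists were chosen with earlier results of these data known, so no p over the lists is given. Genes named are the 10 members, from each list and line the 3 with the smallest adjusted p for R1881 against DMSO at 22 h among those called, and the 5 genes most like FKBP5. TOMM70 is listed as TOMM70A in the table, and some genes stand in 2 lists. Levels per kilobase used the joined exon length of all GENCODE 44 transcripts of a gene, matched by symbol. Alternatives were DESeq2 1.42.0, no filter, other control replicates, only the groups compared, a replicate block, a GC covariate, other scalings of the order, added pseudogene counts, and each darolutamide replicate left out in turn.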

Additional observations from a re-analysis of the deposited data

Results flagged for a closer look

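In 5 of 160 checks, 1 for each of 10 members in each of 16 groups of 4 to 10 libraries, 1 library stood apart from the others of its group in log2 CPM by Dixon's criterion, which chance meets in about 1 in 20 checks. All 5 were VCaP libraries. FKBP4 had 8.72 in R1881 replicate 2 at 22 h, where the others had 8.78 to 8.83. HSP90AB1 had 11.38 in DMSO replicate 10 at 8 h (others 11.49 to 11.56) and 11.34 in replicate 3 with 2 µM darolutamide at 8 h (others 11.46 to 11.5). PTGES3 had 8.92 in replicate 3 with 500 nM darolutamide at 8 h (others 8.98 to 8.99). STIP1 had 10.43 in R1881 replicate 8 at 8 h (others 10.22 to 10.33).

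The R1881 effect differed between 22 and 8 h for 7 members in VCaP, against 60.4% of all genes (edgeR, adjusted p under 0.05). The difference in log2 fold change was 0.29 for FKBP5, 0.45 for FKBP4, -0.3 for HSP90AA1, -0.15 for HSP90AB1, 0.11 for STIP1, -0.59 for DNAJB1 and -0.17 for DNAJA1. In LAPC4 it differed for FKBP5, by 0.75, against 3.21% of all genes.

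Between VCaP and LAPC4, the R1881 effect at 8 h differed by 4.5 for FKBP5, -0.56 for FKBP4, 0.48 for HSP90AA1, 0.46 for STIP1, 1.16 for DNAJB1, 0.65 for DNAJA1 and 0.13 for PPID. At 22 h the differences were 4.07 for FKBP5, -0.14 for FKBP4, 0.17 for HSP90AA1, -0.22 for HSP90AB1, 0.6 for STIP1, 0.56 for DNAJB1 and 0.47 for DNAJA1.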

How the results depend on the processing

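No called fold change of a member reversed among its alternatives, though some that were called in neither fit changed sign near 0: 2961 stayed on their side of the threshold, 64 lost their call and 75 gained one. The order of FKBP5 levels was the same under both other scalings. The replicate numbers did not pair the libraries: same-numbered libraries had a mean correlation of deviations of -0.00511 over 149 pairs in VCaP (-0.501 to 0.455) and 0.0549 over 161 pairs in LAPC4 (-0.573 to 0.597), and 7 of 55 and 6 of 57 libraries correlated best with their own number. The causes of the changes below were not tested, except where fewer libraries or pairs entered.

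With the replicate block, the ratio of FKBP5 to FKBP4 with 2 µM against R1881 had log2 differences of -2.738 and -4.253 in VCaP and -0.719 and -1.332 in LAPC4 at 8 and 22 h, and that of HSP90AA1 to HSP90AB1 -0.349 in VCaP at 8 h. Each rests on 5 pairs, for which the smallest exact p is 0.0625. With control replicates 6 and above, the R1881 changes at 22 h of 5.433 and 1.263 (FKBP5 to FKBP4, VCaP and LAPC4) and 0.383 (HSP90 ratio, VCaP) no longer passed, and with replicates 1 to 5 the HSP90 ratio in LAPC4 at 8 h passed at -0.062.

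Counts of members called moved by over 1.5 times as follows. In VCaP, 2 µM against 500 nM at 22 h gave 7 with the GC covariate, 1 with the block, 8 with both and 1 to 4 without single libraries (main 3). In VCaP 500 nM against R1881 at 22 h gave 8 with the GC covariate, with control replicates 1 to 5 and in the fit of only the groups compared, and 9 with block and GC (main 5), and at 8 h 5 with the block (main 8). In VCaP 2 µM against DMSO at 8 h gave 8 with GC (main 5). In LAPC4, R1881 against DMSO at 22 h gave 5 with GC, 1 with control replicates 6 and above and 5 with block and GC (main 3), and at 8 h 3 with block and GC (main 1). LAPC4 500 nM against R1881 gave 2 with GC, 2 with control replicates 6 and above and 5 with block and GC at 22 h, and 2 with block and GC at 8 h (main 1 each). LAPC4 2 µM against R1881 at 22 h gave 1 with control replicates 6 and above, without the filter and with only the groups compared, and 1 to 2 without single libraries (main 2), and 5 with block and GC at 8 h (main 1). LAPC4 2 µM against DMSO gave 2 with block and GC at 22 h, and 1 with control replicates 1 to 5 and 4 with block and GC at 8 h (main 0). LAPC4 2 µM against 500 nM gave 0 with only the groups compared and with the block at 22 h (main 1), and 1 with GC and with block and GC at 8 h (main 0). LAPC4 DMSO at 22 against 8 h gave 5 with control replicates 6 and above (main 8), and the difference of the R1881 effect between times gave 2 with GC (main 1). Members above both R1881 and DMSO in LAPC4 at 8 h numbered 3 with block and GC (main 0).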
